A study of Mus musculus with 6 samples.

Results

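The fibroblast identity genes are 10 genes used to recognise cardiac fibroblasts: Tcf21, Pdgfra, Gsn, Cd248, Thy1, Mfap4, Dpep1, Ddr2, Meox1 and Sparcl1. Members were sought by symbol among the probe sets to which the platform's annotation gives 1 symbol. Of the 10, 9 had such a probe set, out of 19505 named genes. Any probe sets with several symbols were not searched. Pdgfra was not analysed here because no probe set used here carried that symbol. Each of the 9 genes had 1 probe set of this kind, so the choice between such probe sets of a gene did not arise.

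The values come from 6 Affymetrix arrays of mouse heart cells kept for 48 h in culture, either cardiac fibroblasts (CF) or cardiomyocytes (CM). Each cell type received phosphate-buffered saline (PBS), the secretome of Ccrl2+ macrophages or the secretome of Ccrl2- macrophages, with 1 array for each of the 6 groups. In the titles, Sham stands for the PBS groups. All 6 arrays are labelled C57BL/6N, 15 to 16 weeks, heart. The macrophages were sorted from 6 wild-type hearts mixed together, taken 1 week after TAC (transverse aortic constriction, a surgical pressure overload), so each secretome stands for 1 pool of hearts. The protocols describe co-culture with the macrophages themselves, whereas the source labels name their secretome. A description shared by all samples speaks of cardiac macrophages. The groups follow the source labels. No protocol used here says how the fibroblasts and cardiomyocytes were isolated or how many cultures were pooled.

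Fibroblasts of the heart descend largely from the epicardium, make and renew the collagen network, and become matrix-secreting, contractile cells after injury. Their identity is usually read from a few kinds of gene: transcription factors that set the lineage, receptors for growth factors and collagen, surface antigens, and matrix or actin-regulating proteins. Most of these genes are shared with pericytes, mesothelial cells or fibroblasts of other organs, so none of them alone defines the cell.

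Values are log2 probe set summaries, on which a difference of 1 is 2-fold, and levels are compared only between arrays for the same gene. On each of the 6 arrays the median named value was from 6.5 to 6.59. A gene was counted in a pair of arrays when its higher value reached 6.55, the median of all named values, and called when the pair then differed by at least 2-fold. The 95th percentile of the negative control probe sets, called the control limit here, lay between 10.67 and 10.74 on the CF arrays and between 10.2 and 10.25 on the CM arrays. Values under it are within the range of probe sets that target no transcript. A difference between 2 arrays has no replicate check and no p-value. The exception was a limma fit of cell type and medium to all 6 arrays, in which the 3 media stand in for replicates of each cell type. Its error is the scatter of the cell type difference over the media, not the scatter between cultures.

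The labels were first set against marker genes. All 12 cardiomyocyte markers were at least 2-fold higher in CM than in CF under PBS, with a median difference of 7.72, and all 12 lay above the control limit on the CM PBS array against 2 on the CF PBS array. Their summed log2 level was 109.3 to 124.4 on the CF arrays and 189.8 to 192.3 on the CM arrays. Among them Tnnt2, cardiac troponin T, lay at 16.12 in CF and 18.03 in CM under PBS, and Nppa at 16.1 and 18.85. Macrophage and leukocyte markers were present on both, with a summed level over 12 genes of 115.4 to 118.6 in CF and 101.6 to 110.4 in CM. Both cultures thus carried markers of other cell types. In such bulk samples fewer cells of a type and less RNA per cell cannot be told apart.

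**Figure D1:**
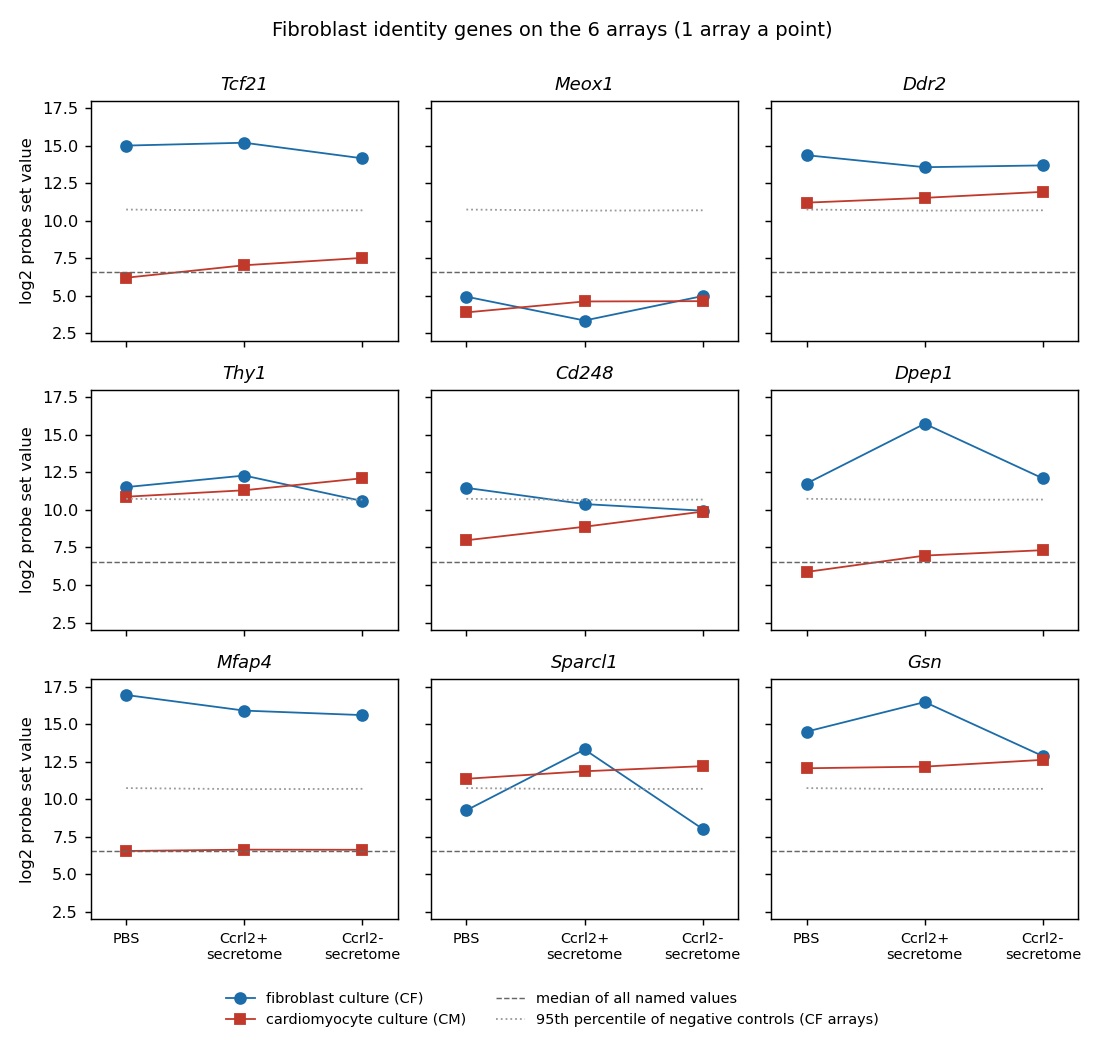
Log2 probe set value (vertical axis) of the 9 fibroblast identity genes under each medium (horizontal axis), 1 array a point, in fibroblast cultures (blue circles) and cardiomyocyte cultures (red squares). The dashed line is the median of all named values, 6.55, and the dotted line the control limit of the CF arrays. Tcf21, Mfap4 and Dpep1 keep the cell types far apart, Thy1 does not, and Meox1 lies below the dashed line on every array.

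The list holds a pair of transcription factor genes. Tcf21, a basic helix-loop-helix factor needed for the formation of cardiac fibroblasts, had values of 15.0, 15.19 and 14.15 in CF with PBS, Ccrl2+ secretome and Ccrl2- secretome. In CM with the same media it had values of 6.2, 7.03 and 7.52. All CF values lay above all CM values, and the CM values were under the control limit. In PBS the difference was at least 8.45, taking the CM value as the 6.55 threshold. It was 8.16 with Ccrl2+ secretome and 6.63 with Ccrl2- secretome, so the gap was smallest in the last. Above the control limits of the CM arrays the CF values stood by 4.8, 4.97 and 3.9. Over the 3 media Tcf21 was higher in CF by 7.86 ± 0.429 (SE, limma adjusted p = 0.000636).

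Meox1, a homeobox factor known from somite development and from activated fibroblasts, was not measured above the threshold anywhere. Its values were 4.94, 3.35 and 4.98 in CF and 3.89, 4.62 and 4.64 in CM, all below 6.55. No direction is read from them, and leaving it out of the counts does not show that the gene was off.

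Tcf21 protein and its relatives bind E-boxes, short sites of the letters CANNTG. RefSeq promoter windows of assembly GRCm38.p6, taken here as the 250 bases before an annotated start, were held for 5 of the 10 genes. The windows of Tcf21 itself, of Dpep1 and of 2 of the 3 Gsn starts are shown because Dpep1 and Gsn were both highest on the same CF array (below), and because the Gsn windows differ between starts. Capitals mark E-boxes, and all are written 5′ to 3′ on the gene's strand.
Tcf21, chr10:22820144-22820393, minus strand: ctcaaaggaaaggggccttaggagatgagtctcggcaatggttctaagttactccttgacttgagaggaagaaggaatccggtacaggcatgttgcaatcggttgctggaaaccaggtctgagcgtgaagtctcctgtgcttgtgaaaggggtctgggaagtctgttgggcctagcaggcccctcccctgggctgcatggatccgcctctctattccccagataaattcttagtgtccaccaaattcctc
Dpep1, chr8:123185985-123186234, plus strand: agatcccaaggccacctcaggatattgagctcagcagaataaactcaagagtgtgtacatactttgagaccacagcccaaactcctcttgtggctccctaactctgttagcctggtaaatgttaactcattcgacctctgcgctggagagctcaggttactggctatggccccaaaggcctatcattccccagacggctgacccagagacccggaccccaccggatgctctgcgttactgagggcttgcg
Gsn, chr2:35256109-35256358, plus strand: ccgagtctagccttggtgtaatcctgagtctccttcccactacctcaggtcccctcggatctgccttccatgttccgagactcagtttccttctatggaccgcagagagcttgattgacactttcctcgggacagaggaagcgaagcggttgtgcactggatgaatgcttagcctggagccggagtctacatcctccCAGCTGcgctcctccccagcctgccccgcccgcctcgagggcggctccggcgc
Gsn, chr2:35266494-35266743, plus strand: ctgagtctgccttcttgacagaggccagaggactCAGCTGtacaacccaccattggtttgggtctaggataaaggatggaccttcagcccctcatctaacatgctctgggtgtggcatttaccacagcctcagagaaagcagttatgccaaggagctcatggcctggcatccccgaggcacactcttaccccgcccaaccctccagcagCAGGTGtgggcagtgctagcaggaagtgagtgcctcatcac

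The first Gsn window holds 1 E-box, CAGCTG, 53 bases before the start. The second holds CAGCTG and CAGGTG, and the third window, not shown, holds 2 E-boxes of other letters. No E-box letters were found on either strand in the Tcf21, Dpep1 or Ddr2 windows. Of 32851 windows of this length, 66.2% hold CANNTG and 13.0% hold CAGCTG, so the Gsn matches are common letters. The GC box GGGCGG, searched on both strands, stands in all 3 Gsn windows and in 32.7% of all windows. A match is a description of the letters only, and the arrays measured no binding.

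The receptor and surface genes gave mixed results. Ddr2, a receptor tyrosine kinase activated by fibrillar collagen, had CF values of 14.36, 13.56 and 13.68 and CM values of 11.2, 11.52 and 11.92 in the same order of media. The groups did not overlap, and all 6 values were above the control limits. Ddr2 was higher in CF by 3.16, 2.04 and 1.76 in the 3 media. The limma difference was 2.32 ± 0.306 (SE, adjusted p = 0.00837). Without the Ccrl2+ arrays the difference was 2.46 and the adjusted p 0.0555, in a fit with fewer residual degrees of freedom.

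Thy1 encodes a glycosylphosphatidylinositol-anchored surface protein found on fibroblasts, T cells and neurons. Its values were 11.52, 12.29 and 10.59 in CF and 10.88, 11.31 and 12.11 in CM, and the cell types overlapped. The lowest CF value was just under the control limit of 10.69. CF was above CM by 0.64 in PBS and 0.98 with Ccrl2+ secretome and below it by 1.52 with Ccrl2- secretome. The limma difference was 0.03 ± 0.512 (SE, adjusted p = 0.977).

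Cd248, endosialin, is a transmembrane glycoprotein of fibroblasts and pericytes. In CF its values were 11.47, 10.39 and 9.95, and in CM they were 7.98, 8.88 and 9.89. The difference went from 3.49 in PBS to 1.51 with Ccrl2+ secretome and 0.06 with Ccrl2- secretome, where the cell types had nearly the same value. Apart from the CF value in PBS, all values of Cd248 were under the control limits. The limma difference of 1.69 ± 0.640 (SE) did not pass, with an adjusted p of 0.153.

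Dpep1 encodes a membrane dipeptidase that cleaves leukotriene D4 and other dipeptides. Its CF values were 11.76, 15.74 and 12.1, and its CM values, all under the control limit, were 5.87, 6.96 and 7.32. CF was higher in PBS by at least 5.21, with Ccrl2+ secretome by 8.78 and with Ccrl2- secretome by 4.78. Above the CM control limits the CF values stood by 1.56, 5.52 and 1.85. Over the media the difference was 6.48 ± 0.761 (SE, limma adjusted p = 0.00572).

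The matrix and cytoskeletal genes included the widest gap. Mfap4, a microfibril-associated glycoprotein that binds elastin and collagen, lay at 16.94, 15.9 and 15.6 in CF. In CM it stayed at the threshold and under the control limit, with 6.55, 6.64 and 6.63. The differences of 10.39, 9.26 and 8.97 gave a limma estimate of 9.54 ± 0.309 (SE, adjusted p = 0.000176). Set against the control limits of the CM arrays in place of the CM values, the CF values were higher by 6.74, 5.68 and 5.35.

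Gsn, the actin-severing protein gelsolin, is abundant in fibroblasts and also made by muscle. It had CF values of 14.5, 16.47 and 12.87 and CM values of 12.06, 12.17 and 12.62. Every value was above the control limits, and CF was above CM by 2.44, 4.3 and 0.25. The limma difference of 2.33 ± 0.748 (SE) had an adjusted p of 0.104. Leaving out the Ccrl2- arrays gave 3.37 with an adjusted p of 0.0221.

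Sparcl1, a matricellular relative of SPARC also made by endothelial and mural cells, went against the list. Its CF values were 9.26, 13.31 and 8.02 and its CM values 11.36, 11.86 and 12.2. CF was below CM by 2.1 in PBS and 4.18 with Ccrl2- secretome, and above it by 1.45 with Ccrl2+ secretome. The CF values in PBS and Ccrl2- secretome were under the control limit. The limma difference was -1.61 ± 1.04 (SE, adjusted p = 0.377). Endothelial markers moved with the CM label: 10 of 11 were at least 2-fold lower in CF under PBS, with a summed log2 level of 89.5 to 94.9 in CF and 134.3 to 135.4 in CM. Mural markers had a summed level over 11 genes of 92.1 to 99.4 in CF and 115.4 to 119.0 in CM. Of 10 counted under PBS, 6 were at least 2-fold lower in CF and 2 higher. The largest differences were those of Des (6.55 in CF against 14.75 in CM) and Abcc9 (5.79 against 11.43). Cnn1 went the other way (9.49 against 6.27). Both Cnn1 values and the CF values of Des and Abcc9 were under the control limits. The part of endothelial and mural cells in the Sparcl1 values was not tested.

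**Figure D2:**
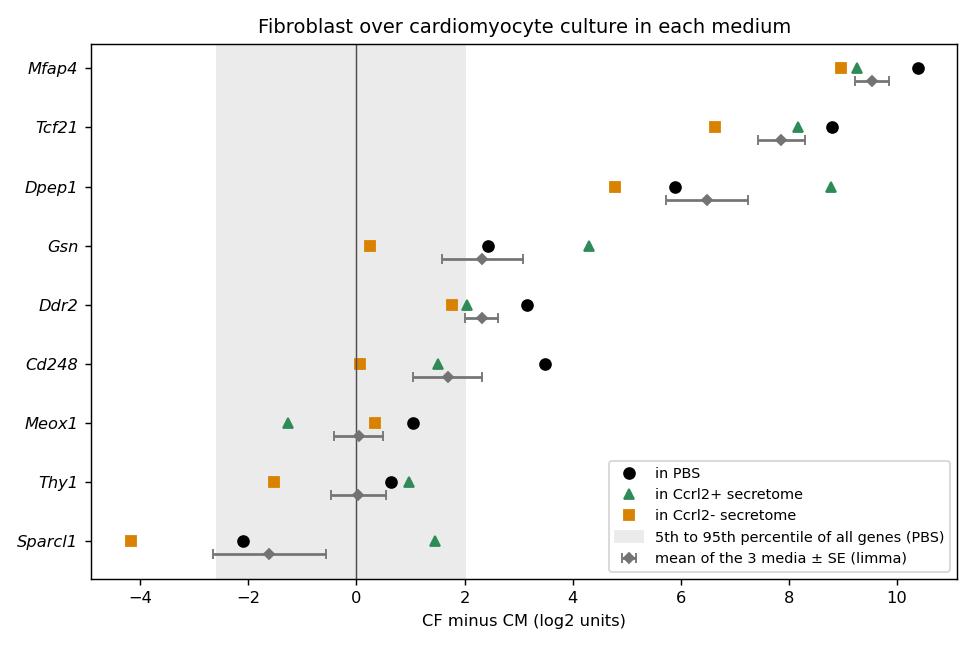
CF minus CM in log2 units (horizontal axis) for each of the 9 genes (vertical axis), with 1 point for each medium and, in grey, the limma mean over the 3 media with its SE. The shaded band spans the 5th to 95th percentile of all counted genes in PBS, -2.58 to 2.01. Mfap4, Tcf21 and Dpep1 lie beyond the band in every medium, and Sparcl1, Thy1 and Meox1 have points on both sides of 0.

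Counted over the 8 genes past the threshold, 6 were called higher in CF and 1 lower under PBS, where 13.9% of all genes were called higher and 16.9% lower. With Ccrl2+ secretome 7 were higher and 0 lower, against 13.4% and 17.6% of all genes. With Ccrl2- secretome 4 were higher and 2 lower, against 12.3% and 15.7%. The median difference of the 8 genes was 3.32, 3.17 and 1.0 in these media, and that of all genes 0.01, -0.05 and 0.0. Of the negative controls counted, 30.64%, 27.21% and 29.84% differed by at least 2-fold in either direction. Their median difference, CF minus CM, was 0.55, 0.49 and 0.52. In the limma fit 4 of 9 genes (Mfap4, Tcf21, Dpep1 and Ddr2) passed an adjusted p of 0.05 as higher in CF and 0 as lower. Over all 19505 genes 6.95% passed as higher and 10.2% as lower. At an unadjusted p under 0.05 the count was 6 of 9.

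Related genes, by list, were counted in the same fit. Of 31 fibroblast matrix genes, 24 were higher in CF in the limma fit and 1 lower, with a median of 2.52. Dpt (dermatopontin) was higher by 7.03 ± 0.344, Islr by 6.55 ± 0.445 and Eln (elastin) by 6.11 ± 0.274 (SE, adjusted p = 0.000491, 0.00118 and 0.000362). In CM every value of Dpt and Islr was under the control limits, as was the Eln value with Ccrl2+ secretome. Those of Islr were also below the threshold. Col15a1, a basement membrane collagen, was the 1 lower gene, with a difference of -3.85 ± 0.287 (SE, limma adjusted p = 0.00153). All of its values were under the control limits. Of 14 genes of PDGF and DDR signalling, the pathways of the Pdgfra and Ddr2 receptors, 7 passed as higher and 3 as lower. Those higher included the DDR2 ligand gene Col3a1 (7.43 ± 0.447, adjusted p = 0.000807) and Pdgfrb, the second PDGF receptor (1.96 ± 0.250, adjusted p = 0.00747). The CM values of Col3a1 in PBS and with Ccrl2+ secretome, 8.78 and 9.77, were under the control limits. The ligand gene Pdgfb was lower (-4.26 ± 0.239, limma adjusted p = 0.000673). Only its CM value in PBS, 10.22, was above the control limits.

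Among 23 mesenchymal transcription factors, 5 passed as higher in CF and 3 as lower, and the median was 0.61. Twist2, Wt1 and Tbx18 were higher by 2.47 ± 0.221, 2.46 ± 0.191 and 2.26 ± 0.171 (SE, limma adjusted p = 0.00252, 0.00173 and 0.0016). Every value of Twist2 and Wt1 was under the control limits, as were the CM values of Tbx18. Tbx5, Hand2 and Gata4, which cardiomyocytes also use, were the 3 lower ones. Every Hand2 value was likewise under the control limits. Of 16 other fibroblast surface genes 7 were higher and 2 lower. Epicardial and mesothelial markers moved alongside, with 5 of 10 higher in CF and 1 lower and summed levels of 99.7 to 103.0 in CF and 81.0 to 87.3 in CM. Their part in the differences was not tested.

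The next comparisons set each secretome against PBS in the fibroblast cultures. In CF with Ccrl2+ secretome, 3 of the 8 genes were at least 2-fold higher than in PBS and 2 lower, against 4.87% and 6.13% of all genes. Dpep1 was 3.98 higher (15.8-fold, the 99.8th percentile of counted genes) and Gsn 1.97 higher (3.9-fold). Sparcl1 was 4.05 higher, but its PBS value was under the control limit, above which the secretome value stood by 2.57. Cd248 was lower by 1.08 and Mfap4 by 1.04, just past the 2-fold mark. The Cd248 value with secretome was under the control limit, above which its PBS value stood by 0.8. With a lowess trend of the difference against the mean level removed, the Mfap4 difference was -0.95 and no longer called. Tcf21 (0.19), Thy1 (0.77) and Ddr2 (-0.8) stayed under the 2-fold mark. The median of the 8 genes was 0.48 against -0.07 for all genes. On the same arrays 19.69% of counted negative control probe sets differed by at least 2-fold.

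With Ccrl2- secretome, 4 of the 8 genes were at least 2-fold lower than in PBS and 0 higher, against 4.83% and 6.18% of all genes. Gsn was lower by 1.63, Cd248 by 1.52, Mfap4 by 1.34 and Sparcl1 by 1.24, and both Sparcl1 values were under the control limit. The Cd248 value with secretome was also under that limit, above which its PBS value stood by 0.78. Thy1 (-0.93), Tcf21 (-0.85) and Ddr2 (-0.68) were lower by less than 2-fold, and Dpep1 was the 1 gene with a value above PBS, by 0.34. The median of the 8 genes was -1.08 against -0.09 for all genes. Of the negative controls 13.06% differed by at least 2-fold. Both of these comparisons use the same PBS array.

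**Figure D3:**
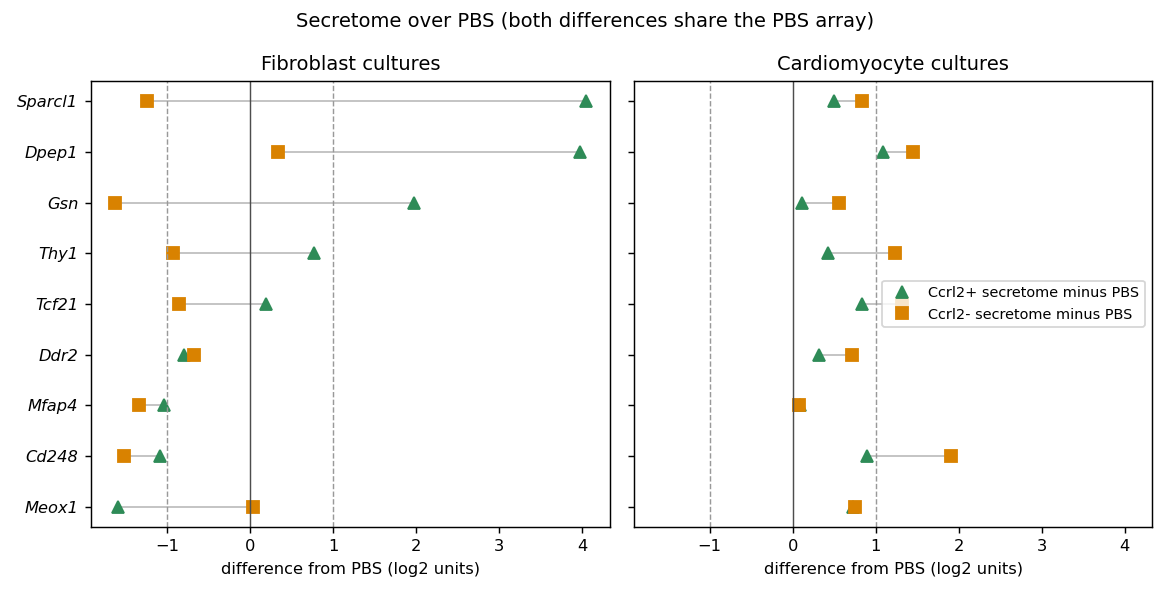
Difference from PBS in log2 units (horizontal axis) for each gene (vertical axis), with Ccrl2+ secretome (green triangles) and Ccrl2- secretome (orange squares), in CF (left) and CM (right). Dashed lines mark 2-fold, and both differences of a panel share its PBS array. In CF the Sparcl1, Dpep1 and Gsn points lie far apart, and in CM all points lie at or above 0. Meox1 was below the threshold on every array and was not counted.

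Between the secretomes directly, 5 of the 8 genes in CF had values at least 2-fold higher under the Ccrl2+ secretome than under the Ccrl2- secretome and 0 lower, against 8.55% and 10.1% of all genes. Dpep1 differed by 3.64 (12.5-fold), Gsn by 3.6 (12.1-fold), Thy1 by 1.7 and Tcf21 by 1.04. Sparcl1 differed by 5.29, but its value with Ccrl2- secretome was under the control limit, above which the Ccrl2+ value stood by 2.62, so its place in this order is not settled. Cd248 (0.44), Mfap4 (0.3) and Ddr2 (-0.12) differed by less than 2-fold. The median was 1.37 against 0.0 for all genes, and 19.02% of negative controls differed by at least 2-fold.

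Other fibroblast genes also differed between the secretomes. Of 28 matrix genes counted, 8 were higher with Ccrl2+ secretome and 2 lower, with a median of 0.4. Mgp, an inhibitor of calcification, was 1.95 higher, and Col14a1, a fibril-associated collagen, was lower by 2.24. The Col14a1 value with Ccrl2+ secretome, 8.65, was under the control limit. Of 15 surface genes 4 were higher and 3 lower: Nt5e, the ectonucleotidase CD73, lay at 9.95 against 5.42, and the adhesion molecule gene Vcam1 at 13.77 against 17.24. Both Nt5e values were under the control limits. Of 19 transcription factors 3 were higher, among them Osr1 (13.47 against 11.54), and 3 lower, among them Prrx1 (13.29 against 14.48).

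Markers of other cells also differed between these CF arrays. Of 11 cardiomyocyte markers counted, 9 were at least 2-fold higher with Ccrl2+ than with Ccrl2- secretome and 0 lower, with a median of 1.36, and 3 were higher than in PBS. Of the 12 markers on the arrays, 3 were above the control limit with Ccrl2+ secretome and 2 with Ccrl2- secretome. The others lay in the range of the negative controls, of which 19.02% differed by at least 2-fold between these arrays. The summed log2 level of the cardiomyocyte markers on the CF arrays was 114.1 in PBS, 124.4 with Ccrl2+ and 109.3 with Ccrl2- secretome. The defining sarcomere genes Myh6 and Tnnt2 were at 9.63 and 16.12 in PBS, 11.13 and 17.03 with Ccrl2+, and 9.65 and 15.08 with Ccrl2- secretome. Of these CF values of Myh6, only that with Ccrl2+ secretome was above the control limit. Macrophage markers summed to 118.1, 118.6 and 115.4. With Ccrl2- secretome against PBS 4 of 11 were higher and 6 lower, among them Cd14 (11.3 against 8.54) and Mrc1 (11.04 against 12.76). Between the secretomes C1qc, C1qa and Mrc1 were higher with Ccrl2+ secretome by 2.96, 2.7 and 2.43, and Cd14 was lower by 4.02. Of 10 epicardial and mesothelial markers 4 were higher with Ccrl2+ than with Ccrl2- secretome and 1 lower, with summed levels of 102.0, 103.0 and 99.7 on the CF arrays. Msln, Upk1b and Lrrn4 were higher by 3.31, 2.09 and 1.62, and Aldh1a2 was lower by 5.77. The part of these cells in the values of Sparcl1, Dpep1 and Gsn was not tested.

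In cardiomyocyte cultures the same genes spanned values from 5.87 to 12.62, leaving Meox1 aside. With Ccrl2+ secretome 1 of 8 genes was at least 2-fold higher than in PBS, against 0.21% of all genes. That gene was Dpep1, higher by at least 0.41, under the 2-fold mark, when its PBS value is taken as 6.55. With Ccrl2- secretome 4 of 8 genes were at least 2-fold higher, against 0.746% of all genes. Cd248 was 1.91 higher, Thy1 1.23 higher, Tcf21 at least 0.97 and Dpep1 at least 0.77, both bounds under the 2-fold mark. Only the Thy1 value of these was above the control limit. Ddr2 (0.72), Sparcl1 (0.84) and Gsn (0.56), all above the limit, differed by less than 2-fold.

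All 8 genes had values above PBS with both secretomes, against 47.05% of all counted genes with Ccrl2+ and 47.07% with Ccrl2- secretome. Mfap4 was above PBS by only 0.09 and 0.08, with all 3 values under the control limit. Tcf21 and Dpep1 were counted only through the secretome arrays, so their direction was fixed by the threshold. The medians, which include them, were 0.46 and 1.03, beside -0.01 and -0.02 for all genes. Both comparisons share the CM array in PBS. Among negative controls counted, 12.86% and 17.7% differed by at least 2-fold. The 5th to 95th percentile of all counted genes ran from -0.49 to 0.44 with Ccrl2+ and from -0.57 to 0.57 with Ccrl2- secretome. How far named genes under the control limit share the spread of the controls was not tested. Between the secretomes Cd248 was lower by 1.01 with Ccrl2+ secretome, the 1 gene called, against 0.18% of all genes called lower. Thy1 followed at -0.8.

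**Figure D4:**
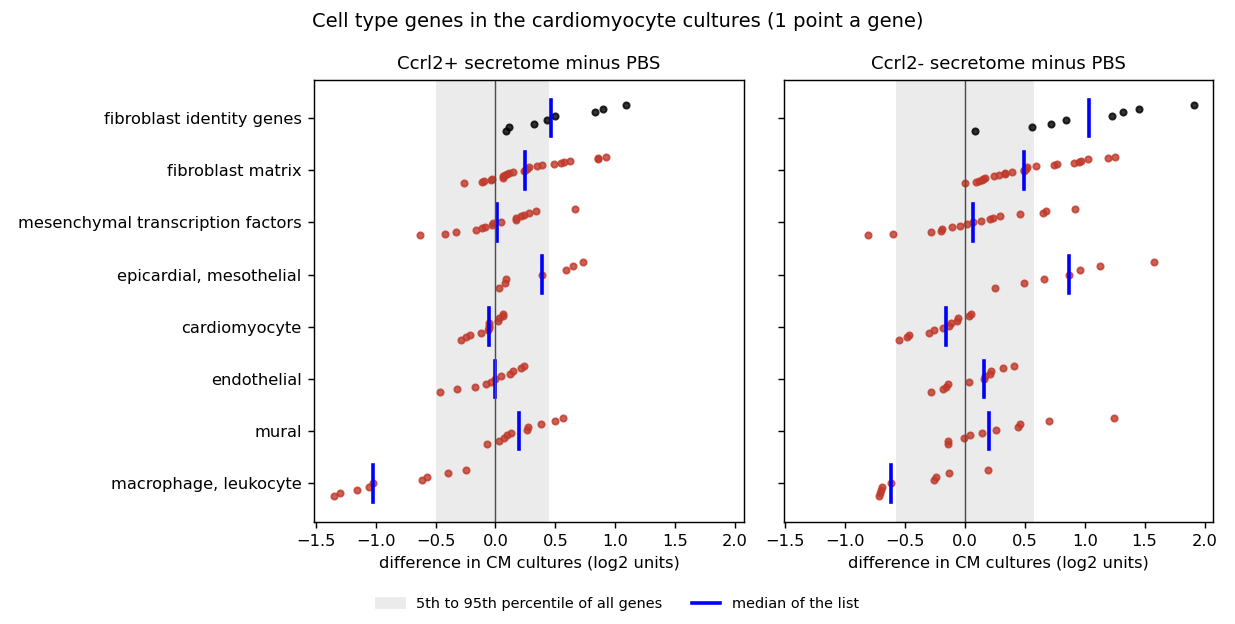
Difference from PBS in cardiomyocyte cultures in log2 units (horizontal axis) for genes of 8 lists (vertical axis), 1 point a gene past the threshold, with Ccrl2+ secretome (left) and Ccrl2- secretome (right). Blue bars are list medians, and the shaded band is the 5th to 95th percentile of single genes, against which points and not medians are to be read. With Ccrl2- secretome the fibroblast identity points run from 0.08 to 1.91, the epicardial points from 0.25 to 1.58 and the macrophage points from -0.72 to 0.19.

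Related genes in CM with Ccrl2- secretome differed by group. There 3 of 24 matrix genes were at least 2-fold higher (Col6a3, Mgp and Col5a1, by 1.25, 1.19 and 1.03) and 0 lower, with a median of 0.49. The Col6a3 value in PBS and both Col5a1 values were under the control limits. Of 17 mesenchymal transcription factors 0 were called, with a median of 0.07, and of 12 surface genes 0, with a median of 0.12. The DDR2 ligand genes Col3a1, Col1a2 and Col1a1 lay at 10.93, 12.28 and 11.3 against 8.78, 10.91 and 10.13 in PBS. The Col3a1 difference of 2.15 was numerically above that of every fibroblast identity gene. The PBS values of Col3a1 and Col1a1 were under the control limit of 10.2, so this rank of Col3a1 is not settled. With Ccrl2+ secretome Col3a1 was at 9.77, Col1a2 at 11.58 and Col1a1 at 10.07. Epicardial and mesothelial markers had a median of 0.39 with Ccrl2+ and 0.87 with Ccrl2- secretome over 7 genes. Their summed log2 level on the CM arrays over 10 genes was 81.0, 83.5 and 87.3, and Lrrn4 lay at 9.69, 10.42 and 11.27. Macrophage markers went the other way, with summed levels of 110.4, 101.6 and 106.4, and Mrc1 at 12.92, 11.76 and 12.23. Cardiomyocyte markers summed to 192.3, 191.4 and 189.8. The part of other cells in the CM values of Cd248, Thy1, Tcf21 and Dpep1 was not tested.

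When the medium was fitted in limma over both cell types together, none of the 9 genes passed. For Ccrl2+ over PBS, Ccrl2- over PBS and Ccrl2+ over Ccrl2- the share of all genes that passed was 0.0%, 0.0% and 0.0%. At an unadjusted p under 0.05 the counts were 529, 593 and 537 genes, and only Dpep1 was among them, in Ccrl2+ over PBS (2.54 ± 0.932, SE, unadjusted p = 0.0409, limma adjusted p = 0.976). This fit takes unequal responses of the cell types as error, and the values of Sparcl1 (4.05 in CF, 0.5 in CM) and Gsn (1.97 and 0.11) were unequal.

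Profiles over the 6 arrays were compared by the root mean square distance between values centred on each gene's mean, over 10778 genes. The 3 genes nearest to Tcf21 were Prelp, Kcne4 and Sfrp1 (0.31, 0.32 and 0.35), and the nearest to Mfap4 were Fmod, Sod3 and Ecrg4 (0.43, 0.61 and 0.71). Nearest to Gsn were Omd, Cdk15 and Sytl5 (0.19, 0.28 and 0.31), to Cd248 Lsp1, Tlcd4 and P4ha3 (0.32, 0.34 and 0.34), and to Thy1 Tspan17, Dock8 and Tox (0.19, 0.23 and 0.23). Ddr2 was nearest to Sh3rf3, Dact3 and Phactr1 (0.09, 0.12 and 0.13). Dpep1 had no close match, since Scn7a, Peg10 and Olfml1 were at 0.89, 0.96 and 0.96. Sparcl1 was nearest to Tsc22d3, Ace and Hif3a (0.41, 0.44 and 0.53). All genes named as nearest to Ddr2 and Gsn, and Dock8, Tox, Tlcd4, P4ha3 and Hif3a, were under the control limits on every array. Tsc22d3, a glucocorticoid-induced leucine zipper gene, lay at 9.92, 13.31 and 9.09 in CF and at 12.51, 12.25 and 12.55 in CM. Ace, angiotensin-converting enzyme, lay at 9.01, 13.8 and 8.97 in CF and at 11.78, 11.7 and 12.03 in CM. Both shared with Sparcl1 a single high CF array, that with Ccrl2+ secretome.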

How the data were processed

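Probe set summaries on the log2 scale were deposited by the authors, who used Affymetrix Expression Console according to the submitters' processing notes. For version, algorithm, build and annotation nothing is given in the sources used here. The log2 scale was read from the values. Sorted values of the arrays nearly coincided (mean gap 0.09, largest 0.3), so an overall shift between arrays would not be seen. Of 28846 probe sets, 19572 had 1 symbol and were used. The other 9274 had no symbol or several, which were not counted apart, and 5222 of them were negative controls. The highest-mean probe set was used for each symbol.

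Array pairs were subtracted, with the threshold and 2-fold rule given above. Cell type and medium were fitted with limma 3.58.1 in R 4.3.3 (lmFit, eBayes, 2 residual degrees of freedom, Benjamini-Hochberg adjustment over 19505 genes). Other work used Python 3.11.15, pandas 2.3.3 and matplotlib 3.10.9. Both procedures were tested on simulated data. Members, gene lists and tests were chosen with earlier results of these data known. The text names all members, up to 4 genes a list with the largest differences, the 3 nearest profiles and marker genes. Pdgfrb, Hand2, Gata4 and Col15a1 were named outside that rule, after their values were seen. Alternatives covered thresholds, floors, normalization, probe set choice, the medium block and leaving out arrays. Precision is limited by the number of arrays.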

Additional observations from a re-analysis of the deposited data

Results flagged for a closer look

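With Ccrl2- secretome Cd248 was lower than PBS in CF, by -1.52 on the log2 scale, and higher in CM, by 1.91. It was marked because its differences under the same contrast had opposite signs, each of at least 2-fold, in the 2 cell types. With 1 array a group the difference between the cell types was not tested, and 3 of its 4 values (9.95 in CF with secretome, 7.98 and 9.89 in CM) were under the 95th percentile of the negative controls.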

How the results depend on the processing

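With 1 array a group, replicate numbers could pair no arrays. The cell type fit paired CF with CM by medium, and without that block 4 genes were called as before. Of 88 counts recomputed for the fibroblast identity genes, 74 stayed within 1.5 times the count reported and 14 moved. At 1.5-fold the count went from 4 to 7 for Ccrl2- over PBS in CF, from 1 to 3 for Ccrl2+ over PBS in CM, and from 1 to 2 between the secretomes in CM. At 3-fold it went from 5 to 3 and from 4 to 1 for Ccrl2+ and Ccrl2- over PBS in CF. In CM it went at 3-fold to 0, 1 and 0 for Ccrl2+ over PBS, Ccrl2- over PBS and between the secretomes. With the 6.55 threshold moved to the 75th percentile (10.14) the same CM counts were 0, 1 and 0. With values below 6.55 set to it, they were 0 for Ccrl2+ and 2 for Ccrl2- over PBS. Quantile normalization gave 0 between the secretomes in CM, where Cd248 had differed by -1.01. Single differences that were called kept their direction, and 9 of 324 differences recomputed moved by over 1.5-fold, all of Dpep1 or Meox1 with values set to 6.55. Leaving out a pair of arrays gave 3 to 5 genes in the cell type fit (Ddr2 lost without Ccrl2+, Gsn gained without Ccrl2-). Over all genes it gave 1207 without PBS, 1634 without Ccrl2+ and 2677 without Ccrl2- against 3336, with fewer residual degrees of freedom. The low values of Tcf21, Dpep1, Cd248 and Mfap4 in CM, near those of negative controls, limit what can be read there.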
